A study of Mus musculus with 144 samples.

Results

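Growth hormone receptor signalling was followed in mouse liver through 8 genes: Ghr, Jak2, Stat5a, Stat5b, Socs2, Cish, Bcl6 and Onecut1. They were found by symbol in the 4 deposited expression tables, as 16 of 34600 transcript rows and 8 of 24421 gene symbols, and the transcript row with the largest mean was kept for each symbol. On mm9 the kept rows were Ghr at chr15:3267755-3533352 on the minus strand, Jak2 at chr19:29326293-29387570 (plus), Stat5a at chr11:100720665-100746483 (plus) and, next to it, Stat5b at chr11:100642045-100683884 (minus). Socs2 lay at chr10:94874124-94879491 (minus), Cish at chr9:107199020-107204292 (plus), Bcl6 at chr16:23965138-23988698 (minus) and Onecut1 at chr9:74709728-74737454 (plus). All mice were male C57BL/6J on normal chow. The mutant carried a REV-ERB alpha and beta double knockout, which the series' design places in adult hepatocytes, and the controls were labelled wild type. Knockout and control livers were collected under reverse-phase feeding or under ad libitum feeding at ZT1, 4, 7, 10, 13, 16, 19 and 22, where ZT is zeitgeber time, hours counted from lights on. Endothelial cells and Kupffer cells, the resident macrophages of the liver, were isolated from knockout and control mice at ZT4, 10, 16 and 22, and neither their feeding schedule nor the hours of food access under reverse-phase feeding is given by the labels. Each of the 48 groups held 3 libraries, 144 in all. The table headings name the knockout columns after CRE and the control columns after GFP. Read as a recombinase and a control vector, these would differ along with the genotype, and an effect of the vector and an effect of the genotype cannot be told apart. Libraries are not tied to separate animals by the labels. The p-values therefore reflect the spread among libraries, which may be technical.

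Growth hormone reaches the liver in pulses and binds its receptor, encoded by Ghr. The receptor activates the kinase JAK2, which phosphorylates the transcription factors STAT5A and STAT5B, and these carry the signal to the genome. Male rodents secrete the hormone in well separated pulses and females more continuously, so that STAT5 activity in male liver switches on and off between pulses and a large set of liver genes differs between the sexes. Among the targets of STAT5, SOCS2 and CISH feed back on the receptor and its kinase. BCL6 is a repressor that STAT5 holds down and that competes with it for DNA sites, and ONECUT1 (HNF6) is a liver transcription factor induced by growth hormone. REV-ERB alpha and beta are clock repressors.

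The DNA letters that STAT5 binds were found near the starts of the feedback gene Cish and the repressor gene Bcl6, and not near those of the receptor, kinase, STAT and Onecut1 genes. In RefSeq promoters on GRCm38.p6, each 300 bases long with 250 before and 50 after the start, the element TTCNNNGAA, which reads the same on both strands, occurred in 8.3% of 32851 promoters. It occurred 2 or more times in 0.457% and 3 or more times in 11 promoters. The Cish promoter at chr9:107296409-107296708 on the plus strand held 2 elements. One Bcl6 promoter at chr16:23981234-23981533 on the minus strand held 3, and a second at chr16:23988803-23989102 on the same strand held 1. The table held promoters of 7 of the 8 members (all but Socs2). Those 3 promoters are shown because they carry every element found among the members, 5′ to 3′ and with the elements in capitals.
Cish: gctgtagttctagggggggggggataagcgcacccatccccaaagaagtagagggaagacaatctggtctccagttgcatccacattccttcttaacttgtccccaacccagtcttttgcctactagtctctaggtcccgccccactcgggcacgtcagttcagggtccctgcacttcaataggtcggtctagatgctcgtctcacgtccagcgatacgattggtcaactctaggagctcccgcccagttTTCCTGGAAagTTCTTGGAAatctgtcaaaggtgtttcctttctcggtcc
Bcl6, downstream start: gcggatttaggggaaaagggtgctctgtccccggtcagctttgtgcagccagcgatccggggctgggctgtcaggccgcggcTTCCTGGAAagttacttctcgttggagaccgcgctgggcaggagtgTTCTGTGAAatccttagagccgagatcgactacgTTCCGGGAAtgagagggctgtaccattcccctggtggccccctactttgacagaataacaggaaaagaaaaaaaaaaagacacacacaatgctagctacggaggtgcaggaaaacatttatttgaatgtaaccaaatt
Bcl6, upstream start: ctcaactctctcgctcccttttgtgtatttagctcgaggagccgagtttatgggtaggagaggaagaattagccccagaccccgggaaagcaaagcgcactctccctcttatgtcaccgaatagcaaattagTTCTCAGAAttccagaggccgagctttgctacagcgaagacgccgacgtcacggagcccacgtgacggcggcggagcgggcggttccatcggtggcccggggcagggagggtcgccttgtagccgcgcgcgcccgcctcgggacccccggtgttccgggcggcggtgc
The Cish elements TTCCTGGAA and TTCTTGGAA began at positions 1 and 12 counted from the start. In Bcl6 they were TTCCTGGAA, TTCTGTGAA and TTCCGGGAA at -168, -122 and -88 from the downstream start, and TTCTCAGAA at -118 from the upstream start. No promoter of Ghr, Jak2, Stat5a, Stat5b or Onecut1 in the table held the element. The nuclear receptor core element AGGTCA, which REV-ERB proteins can bind, was searched on both strands and occurred in 16.3% of all promoters, and among the members only upstream of Stat5a (at -46 and -44 from its 2 starts) and Stat5b (at -35 from 1 of its 2 starts). The E-box CACGTG occurred in 7.15% of all promoters, and among the members once each in Bcl6 (at -60) and Onecut1 (at -232). A match is a description of letters, not evidence of binding.

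The targeted genes came first as a check of the labels. Nr1d1, encoding REV-ERB alpha, had a normalised CPM (counts scaled to a common library size, with library sizes adjusted by the TMM method) between 41.6 and 153.5 with a median of 90.7 in the 24 knockout livers under reverse-phase feeding, and between 3.72 and 91.1 with a median of 19.6 in the 24 controls. With food ad libitum, the medians were 47.7 CPM in knockouts and 15.7 CPM in controls, and Nr1d2 was likewise higher in knockouts. A count over a whole transcript does not show whether the deleted part is missing, so these values check nothing about the deletion, and knockout and control below are the labels' groups. Arntl, a clock gene that REV-ERB represses, had medians of 35.4 CPM in knockouts and 14.6 CPM in controls under reverse-phase feeding, and 45.0 and 20.5 CPM in the same order under ad libitum feeding. Totals ran between 1.31e+07 and 2.62e+07 counts a library in the reverse-phase table and between 4.57e+06 and 1.04e+07 in the ad libitum table. In both, at least 9 counts stood behind the lowest value of any member. Cell type markers were counted as higher or lower where the genotype effect described below passed an adjusted p under 0.05. Of all genes, 12.7% passed as higher and 14.2% as lower under reverse-phase feeding, and 13.7% and 13.5% under ad libitum feeding. Stellate cell markers were higher in knockout livers for 7 of 9 genes under reverse-phase feeding and 9 of 9 under ad libitum feeding. Endothelial markers were higher for 5 of 12 and 10 of 12 in the same order, and Kupffer markers for 0 of 12 in each. The summed stellate markers ran between 242.2 and 364.0 CPM in knockouts and between 170.3 and 307.1 CPM in controls under reverse-phase feeding, and between 186.9 and 473.1 CPM in knockouts and between 128.6 and 327.2 CPM in controls under ad libitum feeding. No marker of these 3 lists was at 0 throughout a group. The hepatocyte list of 12 had 3 higher and 1 lower in reverse-phase knockouts and 6 higher and 1 lower in ad libitum knockouts. Its summed level had lower medians in knockouts, with overlapping ranges. The medians were 117615.7 CPM in knockouts and 132170.0 CPM in controls under reverse-phase feeding. Under ad libitum feeding they were 135204.5 CPM in knockouts and 149259.9 CPM in controls. Most of that sum was the hepatocyte gene Alb, whose medians, given below, differed by more between the genotypes than those of the sum. The lower sum therefore does not stand for the other markers of the list. Cholangiocyte markers changed for 1 of 6 and 1 of 5, lymphocyte markers for 0 of 7 and 0 of 1, and neutrophil and monocyte markers for 0 of 5 and 1 of 4 in the same order. In whole liver, fewer cells of a type and less RNA per cell cannot be told apart, and the part of the cell make-up in the results below was not tested. Each table carried its labelled cells' defining markers, with Alb at medians of 64709.9 CPM in knockouts and 87689.7 CPM in controls in reverse-phase liver and 75940.8 CPM in knockouts and 99898.2 CPM in controls in ad libitum liver, Stab2 at medians of 22387.3 and 20095.2 signal units in knockout and control endothelial cells and Clec4f at 28107.3 and 26576.9 in knockout and control Kupffer cells. By transcript-length bias, spread or ribosomal RNA content, 10 libraries stood apart from the rest: none under reverse-phase feeding, 2 ad libitum controls (ZT16 replicate 2 and ZT22 replicate 2), 2 endothelial and 6 Kupffer libraries. Results are given without them where that ends or makes a call.

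Per kilobase of transcript, Ghr was the most abundant of the 8 transcripts in liver, and Jak2 the least. Under reverse-phase feeding the mean level of Ghr was 104.2 ± 19.7 CPM per kilobase in knockouts and 102.2 ± 12.3 in controls (SD over 24 libraries each, as for all levels in this paragraph), and under ad libitum feeding 109.3 ± 13.3 in knockouts and 112.4 ± 11.9 in controls. Jak2 stood at 2.75 ± 0.351 CPM per kilobase in knockouts and 2.99 ± 0.423 in controls under reverse-phase feeding. Stat5b exceeded its neighbouring paralogue Stat5a, with 11.5 ± 2.22 against 3.69 ± 0.905 CPM per kilobase in knockouts under reverse-phase feeding. Reads from stretches that the paralogues share could have been split between them by the counting. The remaining 4 genes lay between 4.49 (Onecut1) and 9.97 (Bcl6) CPM per kilobase in those knockouts and between 6.63 (Onecut1) and 9.96 (Cish) in their controls. Their SDs were as large as their means or nearly so, and neighbours in that order did not differ beyond that spread.

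Averaged over the day, 1 member differed between the genotypes. The difference is the fitted daily mean of log2 expression in knockouts minus that in controls, from edgeR's quasi-likelihood test with a 24-h cosine and sine per genotype, and it was called at an adjusted p (Benjamini-Hochberg over all genes tested) under 0.05. Under reverse-phase feeding 1 of 8 members passed, where 26.9% of all 13810 genes did (12.7% higher and 14.2% lower), and 2 of 8 had an unadjusted p under 0.05, as had 37.2% of all genes. Under ad libitum feeding 0 of 8 passed, where 27.2% of all 12534 genes did (13.7% higher and 13.5% lower), and 2 of 8 had an unadjusted p under 0.05, as had 37.0% of all genes.

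Stat5b, the main STAT5 gene of hepatocytes, was the member that rose in knockout livers under reverse-phase feeding. At ZT22 it had 71.8, 68.0 and 66.3 CPM in knockouts, against 53.6, 44.6 and 42.8 CPM in controls. At ZT19 the knockouts had 72.1, 74.0 and 74.8 CPM and the controls 50.5, 70.3 and 42.3 CPM, and at ZT4 the knockouts had 67.8, 60.3 and 48.9 CPM and the controls 47.3, 39.8 and 44.2 CPM. Every knockout library lay above every control library at these 3 times, and the groups overlapped at the other 5. Among all genes under reverse-phase feeding, 19% of gene-time pairs had no overlap in either direction. Over the day the difference was 0.22 ± 0.07 on the log2 scale (SE, 95% interval 0.08 to 0.35, adjusted p = 0.012), a fold of 1.16. It kept its call in each alternative run, with adjusted p between 0.00443 and 0.0246. In ad libitum liver the difference was 0.11 ± 0.05 (adjusted p = 0.142), and the difference between the schedules was 0.12 ± 0.09 (adjusted p = 0.898).

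For the receptor and its kinase the daily means lay close together. Ghr differed by 0.02 ± 0.05 under reverse-phase feeding, with a 95% interval of -0.08 to 0.11, and by -0.04 ± 0.04 under ad libitum feeding, with an interval of -0.13 to 0.04. Jak2 differed by -0.12 ± 0.05 under reverse-phase feeding (unadjusted p = 0.024, adjusted p = 0.0776). Without the reverse-phase control of ZT7 replicate 1 that difference was called, at -0.14 (adjusted p = 0.0445). Jak2 under ad libitum feeding differed by -0.02 ± 0.05. Stat5a differed by -0.07 ± 0.08 under reverse-phase feeding and by -0.21 ± 0.09 under ad libitum feeding (unadjusted p = 0.0219, adjusted p = 0.0722). With time as a factor in place of the daily curve, the ad libitum difference of Stat5a was -0.23 with an adjusted p of 0.0149. It also passed without any one of 5 libraries: the ad libitum knockouts of ZT7 replicates 1, 2 and 3 and ZT16 replicate 1, and the control of ZT10 replicate 2 (-0.24 to -0.23, adjusted p 0.0306 to 0.0483).

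Among the feedback genes and transcription factors the intervals were wide. Bcl6 differed by 0.26 ± 0.38 under reverse-phase feeding and by -0.60 ± 0.28 under ad libitum feeding (95% interval -1.16 to -0.04, unadjusted p = 0.0379, adjusted p = 0.109). Without the ad libitum knockout of ZT22 replicate 1, whose Bcl6 level of 72.5 CPM was the highest of the 24, the ad libitum difference was -0.73 and was called (adjusted p = 0.0426). The median ad libitum level was 14.7 CPM in knockouts and 35.9 CPM in controls, with ranges of 7.95 to 72.5 CPM in knockouts and 10.7 to 94.9 CPM in controls. Onecut1 differed by -0.58 ± 0.36 under reverse-phase feeding and by -0.58 ± 0.32 under ad libitum feeding. Cish differed by -0.35 ± 0.38 and -0.27 ± 0.32 in the same order, and Socs2 by -0.15 ± 0.29 and -0.07 ± 0.32. None of these 6 passed the test, and intervals as wide as -1.29 to 0.14 (Onecut1, reverse-phase) do not show that the genotypes were alike. The genotype effect did not differ between the schedules for any of 8 members (0.207% of 13535 genes passed), and 0 of 8 had an unadjusted p under 0.05 (6.92% of all genes). For Bcl6, whose estimates had opposite signs, reverse-phase minus ad libitum was 0.87 ± 0.48 (95% interval -0.08 to 1.81, unadjusted p = 0.0712, adjusted p = 0.779).

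**Figure D1:**
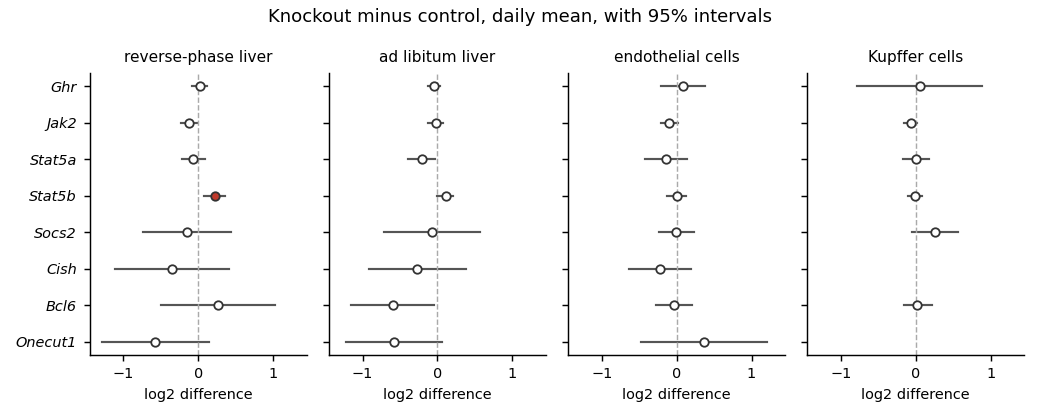
Genotype effect (fitted daily mean of knockouts minus that of controls, log2) for each member in reverse-phase liver, ad libitum liver, endothelial cells and Kupffer cells, with 95% intervals; a filled point passed the adjusted p of 0.05. The filled point is Stat5b in reverse-phase liver at 0.22, and the intervals of Socs2, Cish, Bcl6 and Onecut1 in liver are the widest of the liver panels.

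Among the receptor, kinase and STAT genes, the daily course differed between the feeding schedules in both genotypes for Stat5a and Stat5b, in knockouts for Ghr and in controls for Jak2. A rhythm is the joint test of the 24-h cosine and sine, its size is the log2 difference between the fitted high and low, and its peak is the fitted time of the high. In knockouts, 3 of 8 members were rhythmic under reverse-phase feeding (36.8% of all genes) and 7 of 8 under ad libitum feeding (44.1%). In controls, 1 of 8 was rhythmic under reverse-phase feeding (41.2%) and 4 of 8 under ad libitum feeding (48.1%). Tested directly as reverse-phase against ad libitum, the cosine and sine differed for 7 of 8 members in knockouts (49.0% of all genes) and 4 of 8 in controls (53.6%), the control count being near the share of all genes.

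Ghr was rhythmic in knockouts under reverse-phase feeding, by 0.59 on the log2 scale with a peak at ZT9.7 (adjusted p = 1.04e-05), and in their controls by 0.33 with a peak at ZT8.4 (adjusted p = 0.0127). At ZT7 the knockouts had 560.5, 544.7 and 551.7 CPM and the controls 488.7, 483.8 and 555.5 CPM. At ZT19 the knockouts had 305.8, 379.0 and 417.4 CPM and the controls 379.6, 390.9 and 391.3 CPM. Libraries of both genotypes were thus higher at ZT7 than at ZT19, and the genotypes overlapped at both times. Under ad libitum feeding Ghr had a rhythm of 0.32 with a peak at ZT4.1 in knockouts (adjusted p = 0.00648) and of 0.12 in controls (adjusted p = 0.438). The cosine and sine differed between the schedules in knockouts (by 0.68, adjusted p = 2.67e-05), and in controls the difference was 0.34 (adjusted p = 0.0615), called without replicate 3 of every group (0.46, adjusted p = 0.0213). Between the genotypes the rhythm of Ghr did not pass the test under reverse-phase feeding (0.31, adjusted p = 0.559) or ad libitum feeding (0.20, adjusted p = 0.688).

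The kinase gene Jak2 was rhythmic under ad libitum feeding, by 0.43 with a peak at ZT1.8 in knockouts (adjusted p = 0.00182) and by 0.50 with a peak at ZT3.8 in controls (adjusted p = 0.000285). At ZT22 the ad libitum knockouts had 22.1, 21.1 and 19.1 CPM and the controls 21.8, 18.7 and 20.7 CPM, and at ZT16 the knockouts had 13.9, 15.4 and 14.8 CPM and the controls 14.5, 12.3 and 15.0 CPM. All 6 libraries of ZT22 lay above all 6 of ZT16. Under reverse-phase feeding the rhythm of Jak2 was 0.30 in knockouts (adjusted p = 0.0699) and 0.17 in controls (adjusted p = 0.357). The schedules differed in controls (by 0.61, adjusted p = 0.000864), and in knockouts the difference was 0.31 (adjusted p = 0.144). Without replicate 1 of every group the control difference was 0.45 (adjusted p = 0.0757), and without replicate 2 the knockout difference was called (0.49, adjusted p = 0.0479). The reverse-phase knockout rhythm was called without any one of the knockouts of ZT1, ZT7 and ZT22 replicate 2 (0.32 to 0.34, adjusted p 0.0404 to 0.0456).

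Stat5b had the largest fitted rhythm of the 4 genes under ad libitum feeding and had its high at another time of day under reverse-phase feeding. In the ad libitum livers it was rhythmic by 1.09 with a peak at ZT3.7 in knockouts (adjusted p = 2.47e-10) and by 1.01 with a peak at ZT1.7 in controls (adjusted p = 7.35e-10). At ZT4 the ad libitum knockouts had 81.8, 76.0 and 84.7 CPM and the controls 71.8, 86.8 and 72.0 CPM. At ZT16 the knockouts had 42.1, 41.7 and 40.8 CPM and the controls 36.2, 25.4 and 45.6 CPM. The ZT4 libraries of each genotype lay well above its ZT16 libraries. Under reverse-phase feeding the order was turned round in controls, with 47.3, 39.8 and 44.2 CPM at ZT4 and 64.8, 59.2 and 50.4 CPM at ZT16, and the knockouts had their highest mean at ZT19 (73.6 CPM). The reverse-phase rhythm was 0.47 with a peak at ZT19.9 in knockouts (adjusted p = 0.0136) and 0.30 with a peak at ZT14.8 in controls (adjusted p = 0.16). The cosine and sine of Stat5b differed between the schedules by 1.38 in knockouts (adjusted p = 5.15e-10) and by 1.34 in controls (adjusted p = 1.63e-09).

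**Figure D2:**
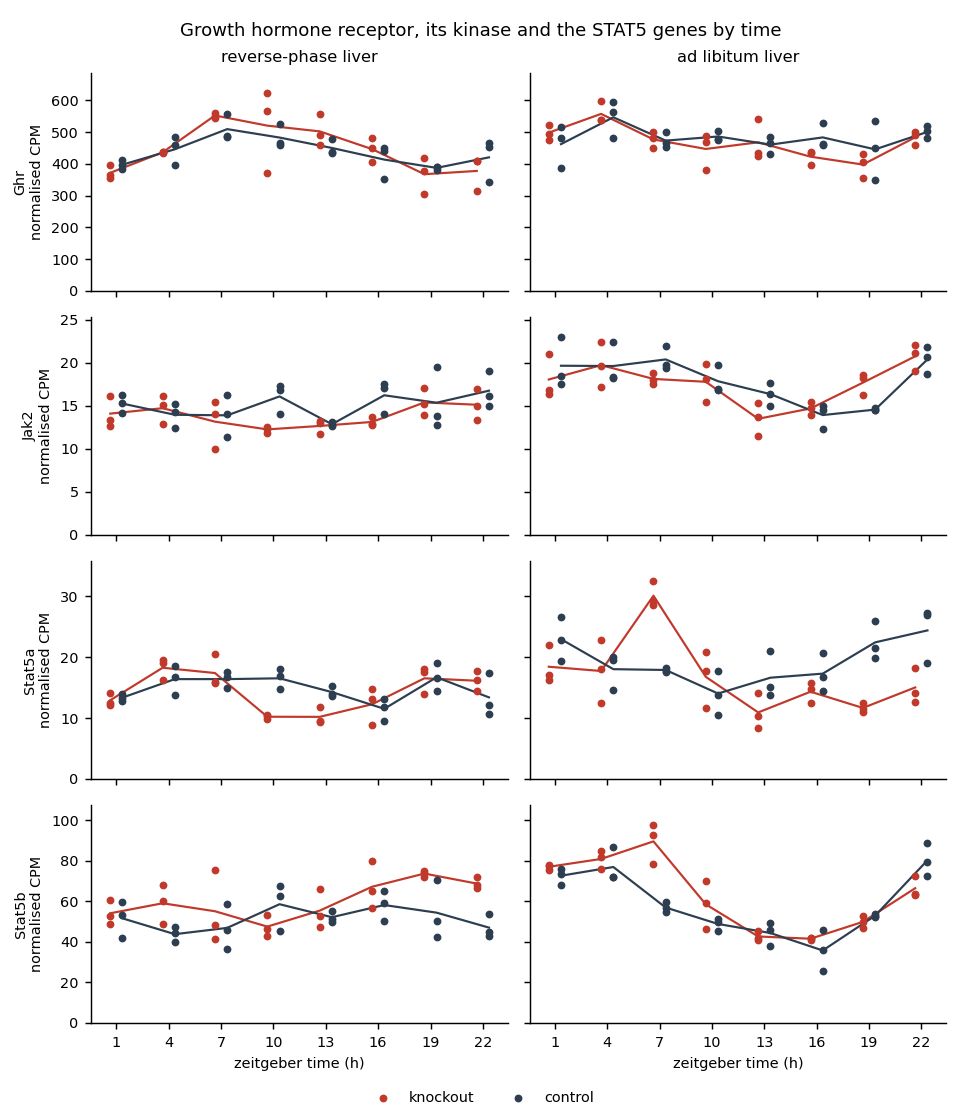
Normalised CPM of Ghr, Jak2, Stat5a and Stat5b in each library (points) against zeitgeber time, with lines through the group means, in reverse-phase (left) and ad libitum (right) liver; knockout in red and control in dark blue, axes from 0. At ZT7 under ad libitum feeding the 3 knockout libraries of Stat5a (28.6 to 32.5 CPM) and Stat5b (78.2 to 97.5 CPM) all lie above the controls.

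Stat5a was the member whose ad libitum rhythm differed between the genotypes. Its rhythm was 0.99 with a peak at ZT5.4 in knockouts (adjusted p = 3.72e-05) and 0.68 with a peak at ZT22.4 in controls (adjusted p = 0.00527). At ZT7 the knockouts had 29.2, 32.5 and 28.6 CPM, against 17.6, 17.8 and 18.3 CPM in controls. At ZT19 the knockouts had 12.5, 11.5 and 11 CPM and the controls 21.5, 26.0 and 19.8 CPM, and at ZT22 the knockouts had 18.3, 12.7 and 14.1 CPM and the controls 19, 27.3 and 26.9 CPM. The knockouts lay above the controls without overlap at ZT7 and below them without overlap at ZT19 and ZT22. Among all genes under ad libitum feeding, 20.9% of gene-time pairs had no overlap in either direction. The difference of the cosine and sine was 1.34 (adjusted p = 0.000994), and it kept its call in each alternative run, with adjusted p between 7.72e-05 and 0.00335. It was 1 of 8 members to pass, where 3.31% of all genes did, and 4 of 8 had an unadjusted p under 0.05 (14.1% of all genes).

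The paralogue Stat5b had a smaller difference of the same kind under ad libitum feeding. At ZT7 the knockouts had 97.5, 92.8 and 78.2 CPM and the controls 54.5, 56.7 and 59.5 CPM, and at ZT22 the knockouts had 72.2, 63.8 and 63.3 CPM and the controls 72.6, 88.7 and 79.2 CPM. As with Stat5a, the knockouts were above the controls at ZT7 and below them at ZT22 with no overlap at either time. The groups overlapped at the other 6 times, and 20.9% of all ad libitum gene-time pairs had no overlap. The rhythm difference was 0.56 with an adjusted p of 0.0619. It passed without the libraries that stood apart (0.56, adjusted p = 0.0151), under DESeq2 (0.55, adjusted p = 0.0395) and without any one of 6 libraries: the ad libitum controls of ZT4 replicate 2, ZT13 replicate 1, and ZT16 replicates 1 and 2, and the knockouts of ZT10 replicate 3 and ZT22 replicate 1. The adjusted p then ran between 0.0072 and 0.0476. Over all alternatives run it lay between 0.0072 and 0.134.

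Under reverse-phase feeding 0 of 8 members differed in rhythm between the genotypes by edgeR (1.48% of all genes passed), and 2 of 8 had an unadjusted p under 0.05 (10.7% of all genes). These were Stat5a, with a difference of 0.65 (unadjusted p = 0.0215, adjusted p = 0.335), and Stat5b, with 0.49 (unadjusted p = 0.0411, adjusted p = 0.435). By DESeq2 and in every other alternative run the adjusted p of these 2 stayed at or above 0.18. At ZT10 Stat5a had 10.3, 9.86 and 10.5 CPM in knockouts and 16.9, 18.0 and 14.7 CPM in controls, and at ZT13 9.5, 11.8 and 9.3 CPM in knockouts and 14.0, 13.6 and 15.2 CPM in controls. The knockouts lay below the controls at both times with no overlap. Within knockouts the Stat5a rhythm was 0.63 with a peak at ZT1.2 (adjusted p = 0.00679), and within controls 0.25 (adjusted p = 0.364). Between the schedules the Stat5a rhythm differed by 0.90 in knockouts (adjusted p = 0.00296) and by 0.88 in controls (adjusted p = 0.00415), where the call was lost without replicate 3 of every group (0.75, adjusted p = 0.0998).

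The 2 feedback genes and Onecut1 had large daily swings in ad libitum knockouts. Socs2, whose product binds the activated receptor, was rhythmic by 3.50 with a peak at ZT10.3 (adjusted p = 9.08e-05). Cish, encoding another STAT-induced inhibitor of the receptor complex, was rhythmic by 2.85 with a peak at ZT11.9 (adjusted p = 0.00146). Onecut1 was rhythmic by 3.02 with a peak at ZT12.9 (adjusted p = 0.000584). At ZT13 the ad libitum knockouts had 44.7, 67.3 and 38.1 CPM of Socs2, against 22.8, 4.58 and 16.7 CPM in controls. At ZT1 the knockouts had 2.98, 2.83 and 1.89 CPM of Socs2 and the controls 1.59, 2.26 and 11.9 CPM. The knockouts were above the controls without overlap at ZT13 and overlapped them at the other 7 times, ZT1 among them. Of all ad libitum gene-time pairs, 20.9% had no overlap.

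In ad libitum controls the fitted rhythms were smaller and their tests weaker, but the difference between the genotypes did not pass. The control rhythm of Socs2 was 1.84 with a peak at ZT7.7 (adjusted p = 0.0462), a call lost in 19 of the 55 alternatives run, where the adjusted p was between 0.0501 and 0.138. Among those were no filter on low counts (0.0615), a fit without the libraries that stood apart (0.0582) and the omission of any one of 16 libraries, the farthest being the control of ZT7 replicate 3 (1.56, adjusted p = 0.138). The control rhythms of Onecut1 and Cish were 1.38 and 1.31 (adjusted p = 0.194 each). The genotypes' rhythms differed by 2.35 for Socs2 (adjusted p = 0.321), 2.24 for Onecut1 (adjusted p = 0.343) and 1.67 for Cish (adjusted p = 0.602), of which Socs2 and Onecut1 had an unadjusted p under 0.05 (0.0403 and 0.0458). A rhythm that passed in knockouts and not in controls was therefore not shown to differ between them.

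For Onecut1 the ad libitum knockouts were nearly uniform at the top of the curve. At ZT13 they had 51.0, 58.4 and 47.9 CPM, against 43.2, 9.88 and 38.0 CPM in controls. At ZT22 they had 5.24, 4.88 and 24.4 CPM, against 41.0, 35.2 and 30.7 CPM in controls. The knockouts were above the controls at ZT13 and below them at ZT22, without overlap at either time. Of all ad libitum gene-time pairs, 20.9% had no overlap. For Cish the same times gave 66.0, 80.5 and 55.9 CPM in knockouts and 86.8, 6.75 and 40.6 CPM in controls at ZT13, which overlapped, and 9.32, 9.0 and 16.5 CPM in knockouts and 31.0, 17.2 and 49.0 CPM in controls at ZT22, which did not.

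Under reverse-phase feeding none of Socs2, Cish, Bcl6 and Onecut1 was rhythmic in either genotype by edgeR. The sizes in knockouts were 1.53 for Socs2 (adjusted p = 0.101), 2.08 for Onecut1 (0.0886), 1.87 for Bcl6 (0.19) and 1.26 for Cish (0.38). In controls they were 2.0 for Onecut1 (adjusted p = 0.0939), 1.41 for Bcl6 (0.244), 0.96 for Socs2 (0.407) and 0.25 for Cish (0.953). The Onecut1 rhythm was called in knockouts by DESeq2 (2.17, adjusted p = 0.0467) and by edgeR without the knockout of ZT7 replicate 2 (2.37, adjusted p = 0.0487) or ZT13 replicate 2 (2.58, adjusted p = 0.0111), and in controls without the control of ZT10 replicate 2 (1.97, adjusted p = 0.0243). The Socs2 rhythm was called in knockouts without the knockout of ZT10 replicate 3 (1.92, adjusted p = 0.0227). Within knockouts the schedules differed for Socs2 by 4.35 (adjusted p = 0.000106), for Onecut1 by 4.08 (0.000737), for Cish by 3.79 (0.00285) and for Bcl6 by 2.88 (0.0488). The Bcl6 call was lost in 5 of 7 alternatives, with adjusted p between 0.0522 and 0.289. Within controls the schedules differed for Onecut1 alone of the 4 (3.33, adjusted p = 0.0159). Leaving out replicate 1 of every group ended the knockout calls of Cish (2.63, adjusted p = 0.189) and Onecut1 (3.0, adjusted p = 0.134), and leaving out replicate 3 ended the control call of Onecut1 (2.60, adjusted p = 0.257). At ZT19 the reverse-phase knockouts had 62.4, 19.4 and 46.0 CPM of Socs2, and the ad libitum knockouts 3.83, 1.44 and 6.36 CPM. At ZT13 the reverse-phase knockouts had 0.926, 24.4 and 2.40 CPM of Onecut1, and the ad libitum knockouts 51.0, 58.4 and 47.9 CPM. Schedules did not overlap at these times, and since the 2 tables were counted and normalised separately the comparison of levels carries any offset between them, which cancels in the rhythm test.

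**Figure D3:**
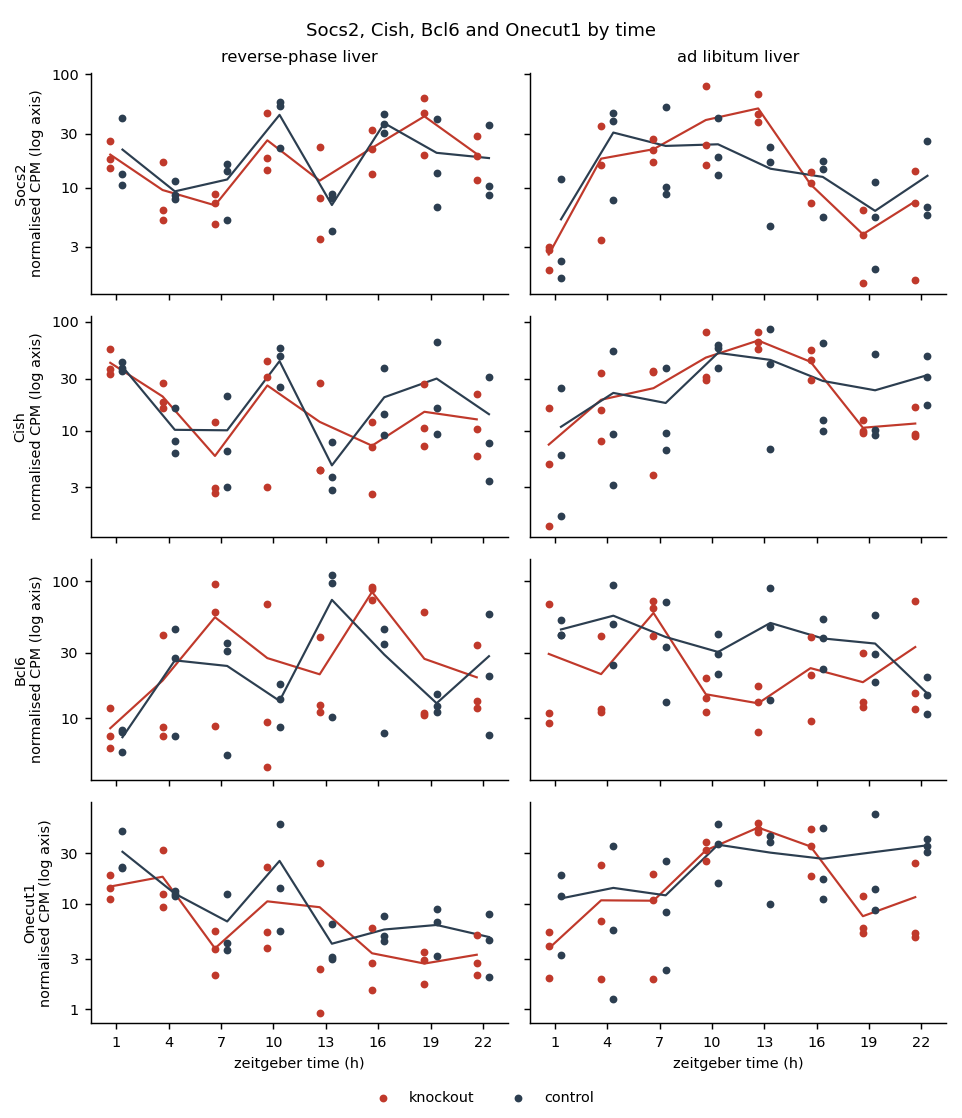
Normalised CPM (log axis) of Socs2, Cish, Bcl6 and Onecut1 in each library (points) against zeitgeber time, with lines through the group means, in reverse-phase (left) and ad libitum (right) liver; knockout in red and control in dark blue. Libraries of 1 group can lie more than 10-fold apart, as for Bcl6 at ZT13 in reverse-phase controls (97.9, 10.2 and 111.8 CPM), while the 3 ad libitum knockouts of Onecut1 at ZT13 lie between 47.9 and 58.4 CPM.

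No rhythm of Bcl6 passed the test under any condition, and its liver libraries spread widely within groups. With that spread the test does not show that a rhythm was absent. Under reverse-phase feeding at ZT16 the knockouts had 87.4, 90.3 and 73.7 CPM, against 44.7, 35.0 and 7.73 CPM in controls, without overlap. At ZT13 the order was the other way for most libraries, with 11, 12.5 and 39.2 CPM in knockouts and 97.9, 10.2 and 111.8 CPM in controls. At ZT10 the knockouts had 68.7, 9.31 and 4.40 CPM and the controls 8.67, 13.7 and 17.7 CPM. Single libraries thus decided the group means at several times. Under ad libitum feeding at ZT10 the knockouts had 19.6, 14.1 and 11.1 CPM and the controls 41.2, 21.0 and 29.2 CPM, without overlap. Its ad libitum rhythm was 1.13 in knockouts (adjusted p = 0.247) and 0.57 in controls (adjusted p = 0.69).

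Counted over all members and times, groups without overlap were no more frequent than among other genes. Under reverse-phase feeding 9 of 64 gene-time pairs had no overlap (4 with knockouts above and 5 below), 14.1%, where 19% of all gene-time pairs had none. On the ad libitum schedule it was 13 of 64 (5 above and 8 below), 20.3%, where 20.9% of all pairs had none.

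The 4 genes downstream of STAT5 varied between libraries of 1 group far more than the receptor, kinase and STAT genes. The SD of log2 expression within groups was 1.27 for Bcl6, 1.14 for Cish, 1.03 for Onecut1 and 0.84 for Socs2 under reverse-phase feeding, against 0.25 for the median gene. These SDs were larger than those of 98.4%, 97.5%, 96.4% and 93.0% of all genes tested. Under ad libitum feeding the SDs were 1.29 for Cish, 1.26 for Onecut1, 1.14 for Socs2 and 0.93 for Bcl6, against a median of 0.22, and larger than those of 99.6%, 99.5%, 99.3% and 98.0% of genes. Among genes of like mean level the 4 exceeded at least 99.0% under reverse-phase feeding and at least 99.8% under ad libitum feeding. Ghr, Jak2, Stat5a and Stat5b had SDs of 0.17, 0.18, 0.20 and 0.24 under reverse-phase feeding and 0.14, 0.14, 0.28 and 0.17 under ad libitum feeding. The spread was present in each genotype. Under reverse-phase feeding the SD of Onecut1 was 1.16 in knockouts and 0.88 in controls and that of Cish 1.2 in knockouts and 1.07 in controls, and under ad libitum feeding that of Cish was 1.05 in knockouts and 1.5 in controls. These are descriptions, and the difference in spread between genotypes was not tested.

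**Figure D4:**
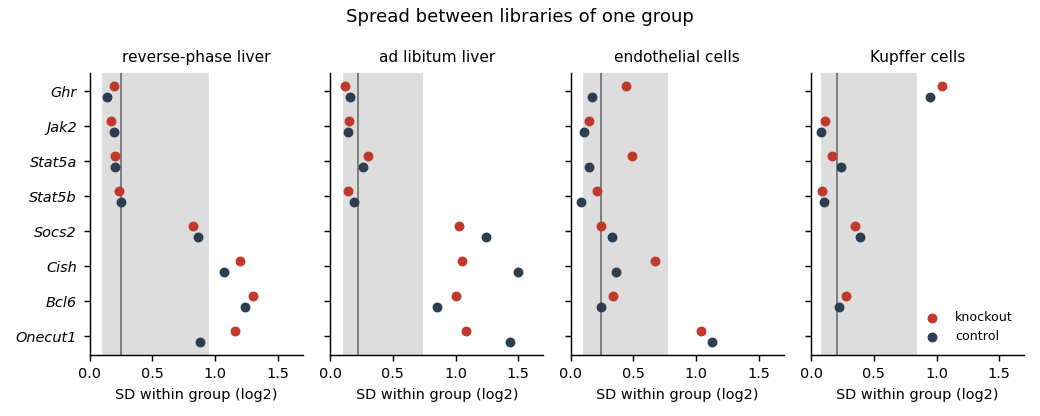
SD of log2 expression between libraries of 1 group for each member, in knockouts (red) and controls (dark blue), with the median gene (line) and the range between the 5th and 95th percentile of all genes tested (grey) in each table. In liver, Cish and Bcl6 lie right of the grey range in both schedules and Ghr, Jak2, Stat5a and Stat5b lie near the line.

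The deviations of single libraries from their group mean were correlated for 1 of the 6 pairs among Socs2, Cish, Bcl6 and Onecut1 under reverse-phase feeding and for 4 of the 6 under ad libitum feeding. Over the 28 pairs of members in each liver table, 56 in all, deviations were correlated over 48 libraries, with a two-sided permutation test that shuffled libraries within groups (100000 permutations, smallest p 1e-05) and adjustment over the 56 pairs. Under ad libitum feeding Cish and Onecut1 had r = 0.86 (rho = 0.86, p = 1e-05, the smallest the permutations can give, adjusted p = 0.00056). Socs2 and Onecut1 had r = 0.68 (rho = 0.65, p = 0.00012, adjusted p = 0.0022). Bcl6 ran opposite to Onecut1 (r = -0.66, rho = -0.66, p = 4e-05, adjusted p = 0.0011) and to Cish (r = -0.54, rho = -0.51, p = 0.0012, adjusted p = 0.011). Socs2 with Cish (r = 0.45, rho = 0.48, permutation p = 0.011, adjusted p = 0.06) and with Bcl6 (r = -0.40, rho = -0.41, permutation p = 0.026, adjusted p = 0.1) did not pass. An ad libitum library that was high in Cish for its group was thus usually high in Onecut1 and low in Bcl6. Within genotypes the correlation of Cish with Onecut1 was 0.77 in knockouts and 0.90 in controls, and that of Cish with Bcl6 -0.42 in knockouts and -0.67 in controls. Without the 2 libraries farthest from the median of the first gene, r was 0.84 for Cish with Onecut1, 0.65 for Socs2 with Onecut1, -0.68 for Bcl6 with Onecut1 and -0.53 for Cish with Bcl6.

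Under reverse-phase feeding the opposition of Cish and Bcl6 was present again, with r = -0.66 (rho = -0.58, p = 0.00023, adjusted p = 0.0026), and -0.62 in knockouts and -0.71 in controls. Without the 2 farthest libraries it was -0.62. Cish and Onecut1 had r = 0.47 (rho = 0.41, p = 0.015, adjusted p = 0.07) and Bcl6 and Onecut1 r = -0.11 (rho = -0.11, p = 0.53, adjusted p = 0.76). Without the reverse-phase knockout of ZT10 replicate 3 the correlation of Cish with Onecut1 was 0.57 and passed (adjusted p = 0.016). That library had 43.6 CPM of Cish and 3.77 CPM of Onecut1. Socs2 did not pass with Onecut1 (r = 0.36, rho = 0.29, permutation p = 0.1, adjusted p = 0.28), Cish (r = 0.29, rho = 0.27, permutation p = 0.15, adjusted p = 0.35) or Bcl6 (r = 0.21, rho = 0.27, permutation p = 0.2, adjusted p = 0.4). The difference of the correlations between the schedules was not tested. Leaving out any 1 library left 3 to 4 called pairs of all 28 under reverse-phase feeding and 5 to 7 under ad libitum feeding, but leaving out a whole replicate number, which leaves 2 libraries a group, left 0 and 0 to 2 in the same order.

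Stat5a and Stat5b were correlated under both schedules, and Jak2 with Stat5b under reverse-phase feeding. Stat5a and Stat5b had r = 0.59 under reverse-phase feeding (rho = 0.64, p = 0.00016, adjusted p = 0.0022) and r = 0.52 under ad libitum feeding (rho = 0.61, p = 0.0025, adjusted p = 0.018). Without the 2 farthest libraries r was 0.62 under reverse-phase and 0.45 under ad libitum feeding. The ad libitum call was lost without the libraries that stood apart (adjusted p = 0.054) and without the knockout of ZT10 replicate 3 (adjusted p = 0.055). Jak2 and Stat5b had r = 0.63 under reverse-phase feeding (rho = 0.54, p = 0.0014, adjusted p = 0.012, without the 2 farthest 0.54). Jak2 with Stat5b under ad libitum feeding (r = 0.31, rho = 0.25, permutation p = 0.093, adjusted p = 0.27) and Jak2 with Stat5a under reverse-phase (r = 0.42, rho = 0.41, permutation p = 0.013, adjusted p = 0.068) and ad libitum feeding (r = 0.37, rho = 0.31, permutation p = 0.065, adjusted p = 0.23) did not pass. Stat5a and Bcl6 had r = 0.43 under ad libitum feeding (rho = 0.40, p = 0.0076, adjusted p = 0.047, without the 2 farthest 0.42), which passed in 21 of 48 fits that left out 1 library. Libraries share depth and RNA composition, and the part of these in the correlations was not tested.

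**Figure D5:**
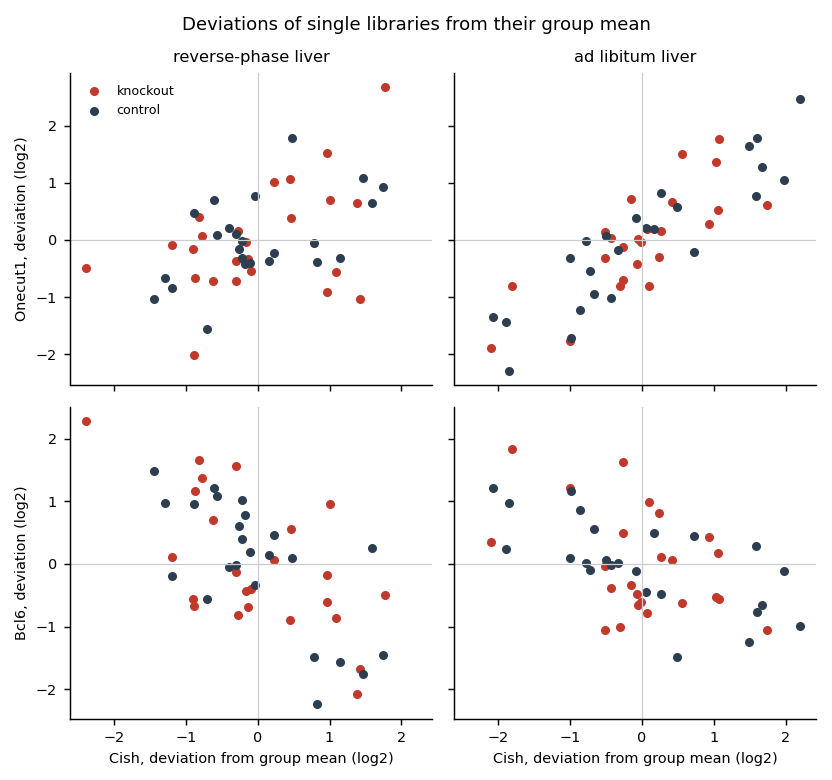
Deviation of each library from its group mean (log2) for Cish (horizontal) against Onecut1 (top) and Bcl6 (bottom), in reverse-phase (left) and ad libitum (right) liver, with knockouts in red and controls in dark blue. The tightest cloud is Cish against Onecut1 under ad libitum feeding (r = 0.86), and Bcl6 slopes downward against Cish in both schedules (r = -0.66 under reverse-phase and -0.54 under ad libitum feeding).

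Likeness of daily course was described over the 32 liver group means, with each schedule centred on its own mean, among 12488 genes. The pattern of Cish was most like those of Foxa2, encoding a liver pioneer factor (r = 0.84), Onecut1 (0.83) and Rrs1 (0.82). Onecut1 was most like Rlf (0.90), Wdr37 (0.88) and B4galt1 (0.86), and Socs2 most like Cdk9 (0.85), Smad9 and Snhg1 (0.80 each). For Stat5b the nearest were Rnf125 (0.89), Fam129b and Rfx4 (0.83 each), and for Ghr Apex1 (0.84), Hsd3b3 and Pigt (0.80 each). Jak2 was nearest to Tmem94, Cnot6l and Cdc14b (0.80 each). Stat5a and Bcl6 had the least similar nearest genes, with Fam89a (0.67), Pik3c2b (0.66) and Epn2 (0.65) for Stat5a and Acsm2 (0.65), Mecr (0.63) and Frat2 (0.62) for Bcl6. The 32 points share libraries and depth, and the nearest of many genes is high by selection.

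In isolated cells the members were measured in another unit, a signal read as normalised because all 24 columns of a table hold the same set of values. No member differed between the genotypes in either cell type by limma: 0 of 8 in endothelial cells, where 0.0319% of 12523 genes passed and 5.4% had an unadjusted p under 0.05, and 0 of 6 in Kupffer cells, where 0.0244% of 12270 passed and 3.98% had an unadjusted p under 0.05. No member had an unadjusted p under 0.05 in either. Cish and Onecut1 fell below the filter in Kupffer cells (at least 10 in 3 libraries). Jak2 differed by -0.10 ± 0.05 in endothelial cells on the log2(value + 1) scale, which understates changes of low genes, and Socs2 by 0.26 ± 0.15 in Kupffer cells. Gene-time pairs of the tested members without overlap numbered 4 of 32 in endothelial cells (12.5%, where 18.2% of all pairs had none) and 3 of 24 in Kupffer cells (12.5%, against 9.36%).

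By signal per kilobase the order of the members was not that of liver. In endothelial cells Jak2 came first, at 153.1 ± 22.7 signal units per kilobase in knockouts and 162.6 ± 14.3 in controls (SD over 12 libraries each), followed by Stat5b at 63.8 ± 11.7 in knockouts and 63.1 ± 4.51 in controls and Ghr at 42.6 ± 12.8 in knockouts and 39.3 ± 8.77 in controls. In Kupffer cells Jak2 stood at 110.2 ± 8.66 in knockouts and 115.8 ± 6.53 in controls, Stat5b at 82.0 ± 6.74 and 82.6 ± 5.39, Bcl6 at 52.0 ± 12.0 and 50.6 ± 7.42, and Ghr at 14.8 ± 11.3 and 14.2 ± 8.21 in the same order. Markers of other cell types were present in both preparations. In endothelial cells summed Kupffer markers had medians of 12672.4 in knockouts and 15764.5 in controls, and stellate markers 12447.8 and 14895.4. Endothelial markers there had 78987.1 and 79767.7. In Kupffer cells endothelial markers had 10225.5 and 10454.5, and Kupffer markers 154508.6 and 150987.6. The part of other cells in the levels above was not tested. Hepatocyte RNA was measurable in both preparations. The hepatocyte marker Alb ran between 5070.3 and 90905.0 signal units in knockout and between 7682.2 and 35198.1 in control endothelial cells, and between 3248.7 and 41930.9 in knockout and between 4213.0 and 46746.1 in control Kupffer cells. Relative to Alb, as units per 1000 units of Alb, the median of Ghr in Kupffer cells was 4.08 in knockouts and 2.95 in controls, in endothelial cells 11.7 in knockouts and 9.48 in controls, and in reverse-phase liver 6.76 in knockouts and 5.15 in controls. For Jak2 it was 49.4 and 23.7 in Kupffer cells and 54.0 and 44.7 in endothelial cells, knockouts first. In reverse-phase liver it was 0.21 and 0.179 in the same order. Alb itself had lower medians in knockouts, so these ratios do not compare the genotypes. Its medians were 11349.4 in knockout and 23291.0 in control Kupffer cells, and 14023.6 and 19451.3 in endothelial cells. In reverse-phase liver they were 64709.9 CPM in knockouts and 87689.7 CPM in controls. Ghr in Kupffer cells also had an SD within groups of 0.99, larger than that of 96.9% of genes. Its highest value, 180.8 in the knockout of ZT22 replicate 2, is in a library that stood apart. The part of hepatocyte RNA in the Ghr values was not tested.

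The wide spread of liver was not present for Socs2 and Bcl6 in isolated cells. Socs2 had an SD within groups of 0.28 in endothelial and 0.37 in Kupffer cells, and Bcl6 of 0.29 and 0.25 in the same order. The median gene had 0.24 and 0.21. In endothelial cells Cish had an SD of 0.54, larger than that of 88.7% of genes. Onecut1 had 1.09 there, larger than that of 98.9% of genes, at a mean of 4.25 signal units. Both fell below the filter in Kupffer cells. These SDs are of log2(value + 1) and those of liver of log2 CPM, so their sizes are not on 1 scale. Bcl6 in Kupffer cells at ZT10 had 147.8, 149.6 and 149.7 signal units in knockouts and 159.5, 149.9 and 161.1 in controls. Rhythms passed for 2 of 8 members in knockout endothelial cells (13.2% of all genes) and 0 of 8 in their controls (6.13%), where 1 of 8 had an unadjusted p under 0.05 (26.6% of all genes, and 31.7% in knockouts). Jak2 was rhythmic there by 0.49 with a peak at ZT7.4 (adjusted p = 0.0155) and Stat5b by 0.45 with a peak at ZT17.9 (adjusted p = 0.0484). The Stat5b call was lost in 21 of 30 alternatives (adjusted p 0.0509 to 0.148). The rhythm difference between the genotypes passed for 0 of 8 members (2.04% of all genes), and 1 of 8, Stat5b, had an unadjusted p under 0.05 (0.0211, adjusted p = 0.15), as had 22.4% of all genes. In Kupffer cells 0 of 6 were rhythmic in knockouts (1.81%) or controls (1.96%), with 1 of 6 at an unadjusted p under 0.05 in each (16.1% of all genes in knockouts and 15.8% in controls), and 0 of 6 differed in rhythm, where 0.0% of all genes did and 2.27% had an unadjusted p under 0.05 (0 of 6 members).

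Other genes of the growth hormone and insulin-like growth factor pathways are given beside the share of all genes called for the genotype effect, 12.7% higher and 14.2% lower under reverse-phase feeding and 13.7% higher and 13.5% lower under ad libitum feeding. Of 22 further receptors, adaptors and inhibitors tested under reverse-phase feeding, 3 rose, 1 fell and 18 did not pass, with a median of -0.07 against -0.01 for all genes. Irs2, an insulin receptor substrate, rose by 1.19 ± 0.26 (adjusted p = 0.000354), and Prlr, the prolactin receptor, by 0.50 ± 0.11, and Socs6 fell by 0.19 on the log2 scale. Of 21 tested under ad libitum feeding 3 rose, 5 fell and 13 did not pass (median -0.06). Irs2 rose by 0.94 ± 0.17 (adjusted p = 4.28e-05), and Prlr by 0.37 ± 0.11, and Socs7 fell by 0.21 on the log2 scale. Igf1, the main endocrine product of growth hormone action in liver, differed by -0.02 ± 0.07 under reverse-phase feeding (adjusted p = 0.887) and by 0.11 ± 0.06 under ad libitum feeding (adjusted p = 0.189). Among the 11 genes of the IGF axis 3 rose, 0 fell and 8 did not pass under reverse-phase feeding, and 4 rose, 0 fell and 7 did not pass under ad libitum feeding (medians 0.11 and 0.12). Under reverse-phase feeding these were the binding proteins Igfbp2 (0.59 ± 0.12), Igfbp3 (0.48 ± 0.12) and Igfbp7 (0.21 ± 0.07). In ad libitum liver Igfbp1 rose by 0.89 ± 0.24, Igfbp3 by 0.54 ± 0.10, Igfbp7 by 0.38 ± 0.07 and Igfbp2 by 0.34 ± 0.10. Igfbp3 and Igfbp7 are also made by stellate and endothelial cells, and the part of the cell make-up in any of these rises was not tested.

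Among genes known to differ between male and female liver, some were called in each direction. Of all genes, 26.9% were called under reverse-phase feeding (12.7% higher and 14.2% lower) and 27.2% under ad libitum feeding (13.7% and 13.5%). Of 20 male-biased genes 4 rose, 2 fell and 14 did not pass under reverse-phase feeding (median 0.32), and 4 rose, 6 fell and 10 did not pass under ad libitum feeding (median 0.02). Cyp4a12a, a male-specific fatty acid hydroxylase, fell by 2.10 on the log2 scale under reverse-phase feeding and by 1.37 under ad libitum feeding (SE 0.26 and 0.17 in that order). Hsd3b5 rose by 1.53 ± 0.51, Mup21 by 1.22 ± 0.30 and Ugt2b38 by 1.05 ± 0.30 under reverse-phase feeding. With food ad libitum, Mup7 fell by 1.11 and Serpina1e by 1.03, and Elovl3 rose by 0.79 ± 0.19. The Mup7 call was lost without the libraries that stood apart (adjusted p = 0.0713) and without the ad libitum control of ZT10 replicate 1 (adjusted p = 0.0512), and Mup and Serpina1 genes belong to families of near-identical copies whose reads are uncertain.

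Of the female-biased genes tested, 3 of 23 rose, 6 fell and 14 did not pass under reverse-phase feeding (median -0.20), and 3 of 17 rose, 3 fell and 11 did not pass under ad libitum feeding (median 0.05). Cyp2a4, a steroid hydroxylase with the near-identical copy Cyp2a5, rose by 5.06 ± 0.34 under reverse-phase feeding and by 2.57 ± 0.20 under ad libitum feeding. Cyp17a1, a steroid-synthesis enzyme, rose by 2.77 ± 0.26 and 3.0 ± 0.19 in the same order. It was the single gene of these lists to pass in endothelial cells (3.07 ± 0.34) and Kupffer cells (2.99 ± 0.35). Hepatocyte RNA was measurable in both preparations, and its part in these Cyp17a1 differences was not tested. Ntrk2 rose by 1.84 ± 0.54 and Cyp2c69 fell by 1.11 under reverse-phase feeding. Without the reverse-phase knockout of ZT10 replicate 3 Ntrk2 was at 1.14 (adjusted p = 0.0679), and without any one of the reverse-phase controls of ZT7, ZT10 and ZT13 replicate 1 Cyp2c69 did not pass (adjusted p 0.0562 to 0.0721). With food ad libitum, Cyp2b10 fell by 1.13.

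A second, shorter transcript row of Ghr, which ends within the gene and shares exons with the kept row, was examined after its values were seen. Its count was 41.9% ± 3.0 of that of the kept row in knockouts and 38.3% ± 2.54 in controls under reverse-phase feeding, and 39.3% ± 1.97 in knockouts and 34.7% ± 3.17 in controls under ad libitum feeding (SD, n = 24 each). The ranges overlapped in both schedules, between 37.1% and 47.7% in knockouts and 35.5% and 46.9% in controls under reverse-phase feeding, and between 36.1% and 44.1% in knockouts and 28.4% and 46.0% in controls under ad libitum feeding. Because the rows share reads, the ratio is not the share of a transcript, and it was not tested.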

How the data were processed

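RNA was extracted with Trizol and RNeasy and made into TruSeq libraries, per the labels' protocols. STAR, HOMER and the genome build mm9 are listed in the submitters' processing notes. The deposited liver tables hold expected counts per transcript, with 29.5% (ad libitum) and 31.9% (reverse-phase) of values not whole and all multiples of 0.5. The deposited endothelial and Kupffer tables hold a normalised signal per transcript. All 24 columns of each have the same sorted values, as quantile normalisation gives, a reading of the values and not a statement of the labels.

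Liver counts were rounded and tested with edgeR 4.0.16 (filterByExpr, TMM scaling, robust quasi-likelihood F test) with genotype and a 24-h cosine and sine per genotype, in each schedule separately and, for schedule terms, in 96 libraries together. Signals were tested as log2(value + 1) with limma 3.58.1 (trend and robust), keeping genes at 10 or more in 3 libraries. P-values were adjusted by the Benjamini-Hochberg method over all genes tested. Both fits were run on simulated data with the same spread for every gene. The liver simulation used less spread than Socs2, Cish, Bcl6 and Onecut1 had, so it does not cover the tests of these genes. DESeq2 1.42.0, other filters, scalings and pseudocounts, time as a factor, a replicate block and the omission of each library were alternatives. R 4.3.3 and Python 3.11.15 were used.

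Libraries stood apart beyond 3 median absolute deviations in length bias or spread, or above 5% ribosomal RNA (Rn45s) in liver, a rule set after the data were seen, as were the correlations of deviations. The members and gene lists were chosen with earlier results of these data known. Named were all members, the targeted genes, up to 4 called genes of each pathway list with the largest genotype effect per liver table and up to 2 per isolated-cell table, and the 3 genes most like each member. Igf1 and Arntl were added outside that rule. Some genes that the rule names are not reported here.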

Additional observations from a re-analysis of the deposited data

Results flagged for a closer look

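The genotype effect of Cyp2a4, a gene higher in female liver, differed between the schedules by a test of that difference in the 96 liver libraries. In reverse-phase liver Cyp2a4 ran between 61.4 and 1666.8 normalised CPM with a median of 495.4 in knockouts and between 6.29 and 82.9 with a median of 15.6 in controls. In ad libitum liver it ran between 96.9 and 531.2 with a median of 157.1 in knockouts and between 8.01 and 97.3 with a median of 39.3 in controls. The genotype effect under reverse-phase feeding minus that under ad libitum feeding was 2.49 ± 0.36 on the log2 scale (SE, edgeR adjusted p = 1.8e-06), and between 2.21 and 2.73 in 7 alternatives (adjusted p 1.82e-06 to 0.0337). Reads of Cyp2a4 and its near-identical copy Cyp2a5 are uncertain, and their part in the difference was not tested.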

How the results depend on the processing

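Of single-gene values, 1105 kept their direction and side of the threshold under other settings, 10 lost and 4 gained a call and 5 changed sign; with 1 library or replicate number left out the numbers were 5894, 47, 22 and 52. The 5 sign changes under other settings occurred near 0. In endothelial cells they were Stat5b (0.00 at a pseudocount of 5) and Socs2 (0.01 without libraries that stood apart, 0.00 with the row of largest mean in that table). The others were Stat5a in Kupffer cells (-0.05 without libraries that stood apart) and the schedule difference of Onecut1 (-0.02 with the replicate block). Counts of called genes moved as follows, and the cause was not tested. The reverse-phase rhythm difference counted 205 genes by edgeR and 326 by DESeq2. In endothelial cells the genotype effect counted 4 genes, 1 at a pseudocount of 0.1 and 2 without libraries that stood apart. The control rhythm there counted 768 genes, 486 without a filter and 1265 without libraries that stood apart, and the rhythm difference 256, 62 and 122 in the same order. In Kupffer cells the genotype effect counted 3 genes and 1 at a pseudocount of 0.1, the knockout rhythm 222, 125 without a filter and 107 without libraries that stood apart, and the control rhythm 241 and 77 without those.

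Leaving out 1 library gave ranges of -0.23 to 0.06 for Socs2 in ad libitum liver. In endothelial cells the genotype effects ran from 0.00 to 0.17 for Ghr, -0.04 to 0.03 for Stat5b, -0.06 to 0.05 for Socs2 and -0.09 to 0.03 for Bcl6, and in Kupffer cells from -0.13 to 0.22 for Ghr, -0.04 to 0.04 for Stat5a, -0.03 to 0.00 for Stat5b and -0.04 to 0.06 for Bcl6. Counts in endothelial cells ran from 1 to 7 (genotype), 738 to 2442 (knockout rhythm), 248 to 1165 (control rhythm) and 0 to 1333 (rhythm difference), and in Kupffer cells from 2 to 7, 57 to 310 and 112 to 320 for the first 3. Leaving out a replicate number gave 6 to 23 genes (28 with all) for the schedule difference of the genotype effect, with -0.20 to 0.01 for Socs2, -0.19 to 0.11 for Cish and -0.36 to 0.38 for Onecut1, and 4414 to 5446 genes (6636 with all) for the schedule difference of the knockout rhythm. Correlated pairs numbered 3 to 4 in reverse-phase and 5 to 7 in ad libitum liver without 1 library, and 0 and 0 to 2 in the same order without a replicate number, which leaves fewer libraries.

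Same-numbered libraries were not treated as pairs in the main fits. Their deviations had median correlations of 0.07 (reverse-phase), 0.01 (ad libitum), 0.01 (endothelial) and 0.05 (Kupffer). The correlations were over 0.1 in 8 of 24, 6 of 24, 1 of 12 and 4 of 12 pairs. Under reverse-phase feeding they ran from -0.46 to 0.52, with 0.49, 0.38 and 0.34 at ZT7. Pairing was not tested. With the replicate block the rhythm difference in endothelial cells counted 144 genes, the control rhythm of Socs2 in ad libitum liver had an adjusted p of 0.0546, the knockout rhythm of Stat5b in endothelial cells 0.0635 and the schedule difference of the Bcl6 knockout rhythm 0.0522.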
